A study of Drosophila melanogaster with 14 samples.

Results

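Histones are made in Drosophila from a cluster of replication-dependent genes and from a small number of variant and replacement genes that stand alone in the genome. The values below are for 5 of these variant and replacement genes, out of the 17868 genes in the count table, chosen by symbol: His3.3B, His3.3A, His2Av, His4r and BigH1. They were chosen together with the contrast in which earlier results of these libraries had set the HDAC1 experiment apart from the other experiments. That contrast is therefore given as a description, without a test, and nothing rests on it. The responses to the genotype within each experiment are no part of that rule and were tested.

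The libraries were made from polyadenylated RNA, and the cells are labelled as type II neural stem cells from brains of Drosophila melanogaster larvae. These neuroblasts renew themselves and bud off intermediate neural progenitors. The HDAC1 experiment had 2 libraries labelled HDAC1 RNAi and 2 HDAC1 controls. The GAF experiment had 3 libraries labelled GAF RNAi and 3 GAF controls, and the Osa experiment had 2 libraries labelled Osa overexpression and 2 Osa controls. All controls carry the genotype label WT, and no allele or treatment shared by all groups is named. HDAC1 is a histone deacetylase, GAF (gene Trl) the GAGA factor that binds promoters, and Osa a subunit of the BAP chromatin remodelling complex. The series' own text speaks of Osa knockdown, whereas the sample labels say overexpression. The driver lines, transgenes, larval age and way of isolating cells were not given in the sources used here. Replicates are not stated to be separate animals or crosses, so the p-values cover the spread among libraries, some of which may be technical.

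A core histone gene of the replication-dependent cluster is transcribed in S phase, and its mRNA ends in a stem-loop in place of a poly(A) tail. Variant genes lie outside the cluster, contain introns in most cases, are transcribed through the cell cycle and give polyadenylated mRNA, so that a poly(A) library reads them directly. His3.3A and His3.3B encode the same H3.3 protein, which replaces H3 in chromatin outside replication, at transcribed genes and regulatory elements in particular. His2Av is the only H2A variant of the fly and does the work of both H2A.Z and H2A.X, at promoters and at DNA breaks. His4r encodes the same H4 protein as the cluster genes. BigH1 is the linker histone of the germline and the early embryo, replaced by somatic H1 when the zygotic genome becomes active.

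Libraries held 34124750 to 35648398 counts in the HDAC1 experiment, 42372121 to 51505597 in the GAF experiment and 31788351 to 34062172 in the Osa experiment. The targeted genes were read first. HDAC1 had 62.3 and 30.9 CPM (counts relative to the scaled library total) in the libraries labelled HDAC1 RNAi, against 64.3 and 70.0 CPM in their controls (log2 fold change -0.67, adjusted p = 0.576 by edgeR's quasi-likelihood test). P-values were adjusted over all tested genes, and a gene is called below where the adjusted p is under 0.05. Trl had 5.96, 6.92 and 5.16 CPM in the libraries labelled GAF RNAi, against 7.35, 6.44 and 5.51 CPM in GAF controls, so the label was not visible in the mRNA (log2 fold change -0.08, edgeR adjusted p = 0.843). The gene osa had 253 and 250.1 CPM in Osa overexpression libraries, against 127 and 127 CPM in Osa controls (log2 fold change 0.99, edgeR adjusted p = 0.0029). The library labelled HDAC1 RNAi replicate 1 stood apart. Its correlation with replicate 2 was 0.911 over log2 CPM, against 0.974 to 0.988 for the other replicate pairs, so results that rest on it are given with and without it. Summed CPM of 8 type II neuroblast markers was 425 to 492 in libraries labelled HDAC1 RNAi, against 1189 to 1236 in HDAC1 controls. It was 1541 to 1760 with the label GAF RNAi, against 1579 to 1854 in GAF controls, and 1009 to 1043 in Osa overexpression, against 1513 to 1620 in Osa controls. Fat body markers summed to at most 0.705 CPM and muscle markers to at most 5.54 CPM in any library. The 3 blood cell markers summed to 6.20 to 15.4 CPM in the HDAC1 experiment and to at most 3.18 CPM in the others. These are bulk libraries, in which fewer cells of a type and less RNA per cell cannot be told apart.

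His3.3B (FBgn0004828) lies on the minus strand of the X chromosome at 9152523 to 9156669 in the BDGP6 annotation of dm6. It has 4 annotated transcripts and 2552 exonic bases, and no exon of another gene overlaps it. His3.3A (FBgn0014857) lies on the plus strand of 2L at 5055058 to 5056149, with 3 transcripts and 1002 exonic bases. Of its exonic bases, 16.8% are shared with Nepl3 on the opposite strand, and the library kit does not mark strand, so reads there could belong to either gene. His2Av (FBgn0001197) is at 26866929 to 26869220 on the plus strand of 3R, with 1224 exonic bases. His4r (FBgn0013981) and BigH1 (FBgn0038252) lie on the plus strand of 3R as well, at 14625755 to 14626614 and at 14663450 to 14664822, with 796 and 1279 exonic bases. The coding parts of His3.3A, His3.3B and His4r can resemble each other's or those of the cluster genes, and the treatment of reads that match several genes was not given in the sources used here.

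His3.3B had the widest range of the 5 genes. On CPM scaled over all 14 libraries it had 1039 and 232 CPM in the libraries labelled HDAC1 RNAi, and 229 and 165 CPM in HDAC1 controls. It had 5707, 4794 and 6001 CPM in libraries labelled GAF RNAi, against 5244, 4806 and 4528 CPM in GAF controls. It had 3677 and 3955 CPM in Osa overexpression, against 3335 and 2754 CPM in Osa controls. Every library of the HDAC1 experiment was below every library of the other experiments. This was so for 20.8% of the 5990 genes with a mean of at least 10 CPM. The library labelled HDAC1 RNAi replicate 1 had the highest His3.3B level of its experiment. The values rest on 5976 to 46370 counts per library in the HDAC1 experiment and on 100569 to 241918 in the others, so depth does not limit them. The GAF experiment ran from 4528 to 6001 CPM and the Osa experiment from 2754 to 3955 CPM. How many other genes differ likewise between the GAF and Osa experiments was not counted.

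The other H3.3 gene did not follow this pattern. His3.3A had 751 and 1480 CPM in the libraries labelled HDAC1 RNAi, and 862 and 824 CPM in HDAC1 controls. It had 1186, 1308 and 1240 CPM in libraries labelled GAF RNAi, against 685, 769 and 702 CPM in GAF controls. It had 596 and 644 CPM in Osa overexpression, against 678 and 705 CPM in Osa controls. Levels in the HDAC1 experiment lay within the range of the other experiments apart from the library labelled HDAC1 RNAi replicate 2, which was the highest of all 14.

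**Figure D1:**
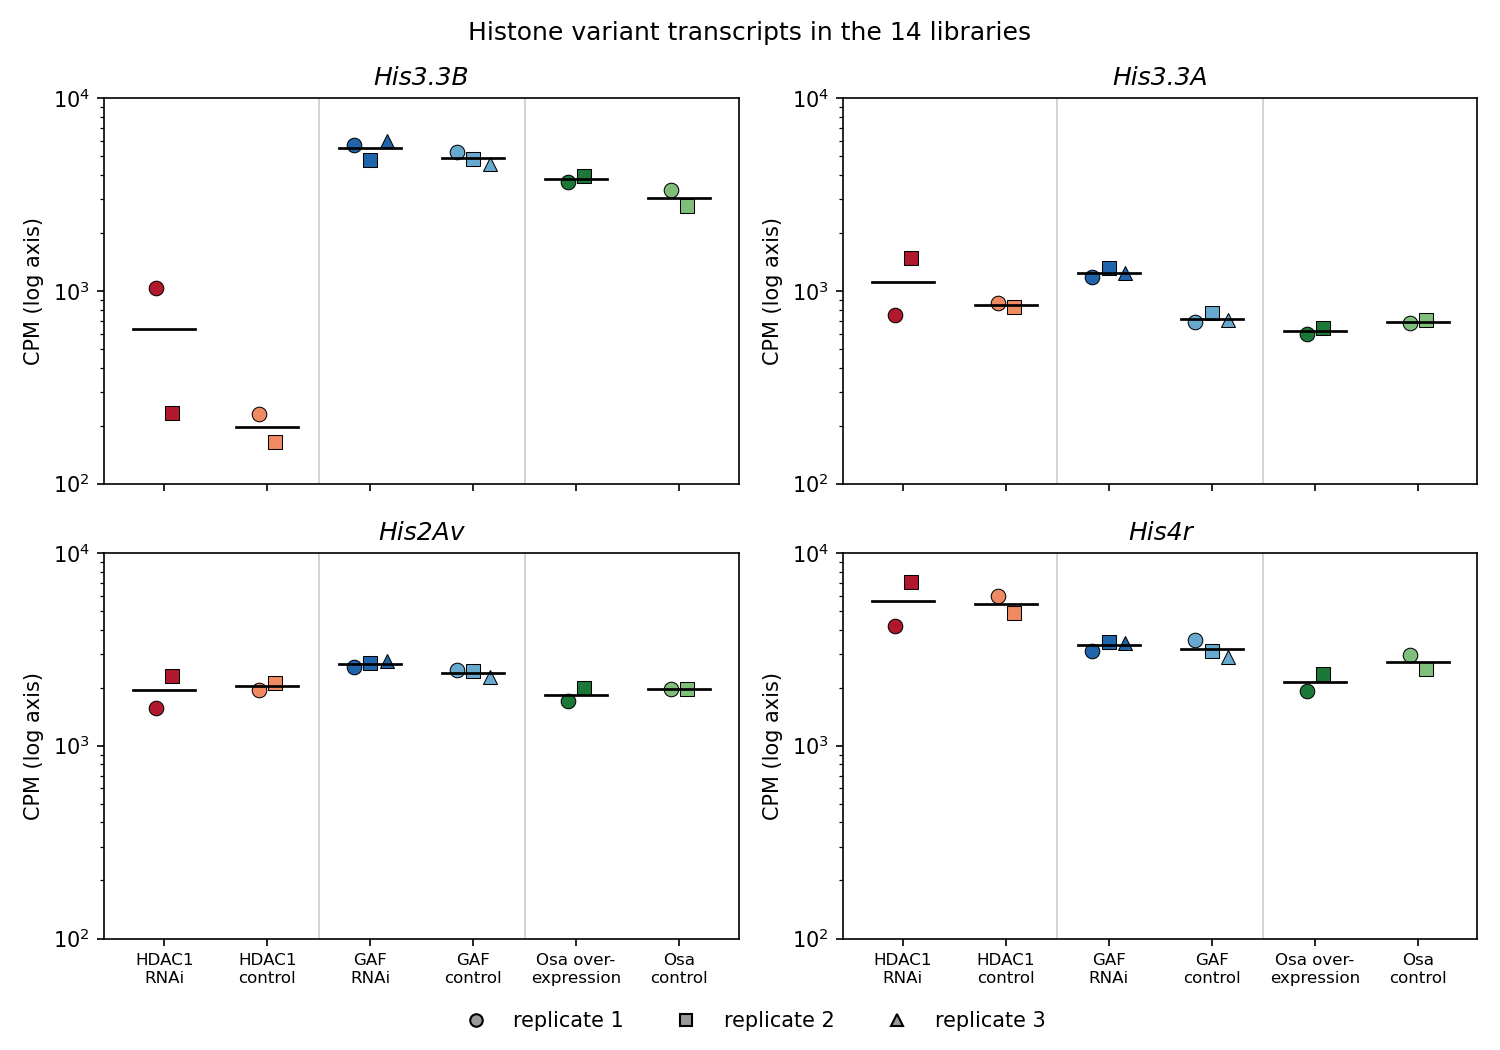
Level of each histone variant gene in every library, in CPM scaled over all 14 libraries on a log axis; points are libraries, shapes are replicate numbers and bars are group means. His3.3B sits between 165 and 1039 CPM in the HDAC1 experiment and between 2754 and 6001 CPM in the other experiments, while His2Av stays between 1571 and 2738 CPM throughout.

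Since the H3.3 genes encode the same protein, their levels were also set side by side per kb of exon. The sum of both was 887 to 1568 CPM per kb in the HDAC1 experiment, 2475 to 3589 in the GAF experiment and 1782 to 2193 in the Osa experiment. His3.3A gave 64.8% and 94.2% of the H3.3 level per kb in libraries labelled HDAC1 RNAi, and 90.5% and 92.7% in HDAC1 controls. It gave 34.6%, 41.0% and 34.5% in libraries labelled GAF RNAi, against 25.0%, 28.9% and 28.3% in GAF controls. It gave 29.2% and 29.3% in Osa overexpression, against 34.1% and 39.5% in Osa controls. His3.3A was thus the larger H3.3 source in all 4 libraries of the HDAC1 experiment and the smaller in the other 10. The transcript that is used in these cells is not known from the counts. With the shortest transcript of each gene as its length, the share of His3.3A was 56.7% to 92.0% in the HDAC1 experiment and 19.1% to 33.1% in the other experiments.

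**Figure D2:**
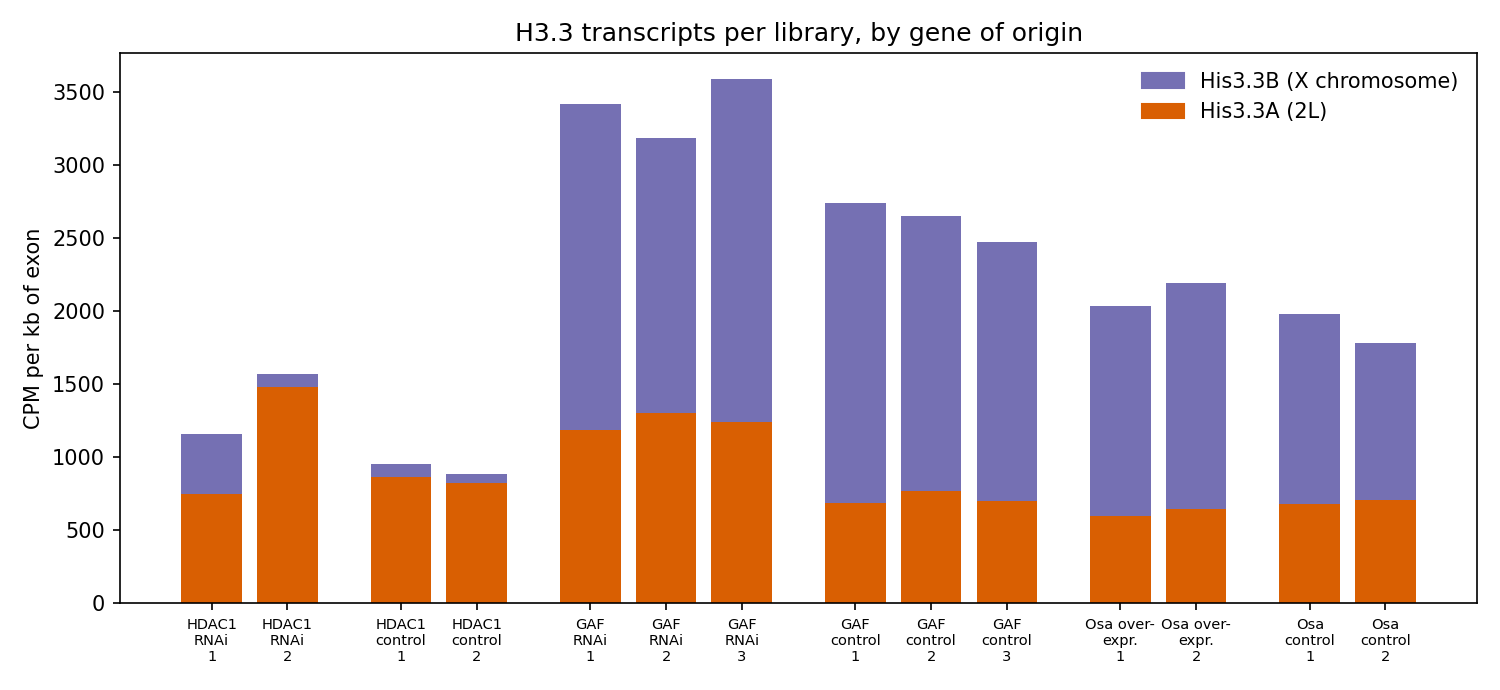
H3.3 transcripts in each library as stacked bars, in CPM per kb of exon, split into His3.3B (upper) and His3.3A (lower). The His3.3A part is the larger one in the 4 libraries of the HDAC1 experiment, at 64.8% to 94.2% of the bar, and the smaller one in the other 10, at 25.0% to 41.0%.

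His2Av varied least. It had 1571 and 2309 CPM in the libraries labelled HDAC1 RNAi, and 1956 and 2125 CPM in HDAC1 controls. It had 2567, 2697 and 2738 CPM in libraries labelled GAF RNAi, against 2467, 2445 and 2263 CPM in GAF controls. It had 1698 and 1981 CPM in Osa overexpression, against 1967 and 1973 CPM in Osa controls. The highest library was 1.74 times the lowest, against 2.48 times for His3.3A, 3.66 for His4r and 36.4 for His3.3B, and the HDAC1 experiment overlapped the others.

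His4r was the highest of the members per kb in all 14 libraries. It had 4193 and 7025 CPM in the libraries labelled HDAC1 RNAi, and 5992 and 4905 CPM in HDAC1 controls. It had 3093, 3455 and 3392 CPM in libraries labelled GAF RNAi, against 3545, 3095 and 2895 CPM in GAF controls. It had 1918 and 2349 CPM in Osa overexpression, against 2962 and 2491 CPM in Osa controls. All libraries of the HDAC1 experiment were above all others, opposite to His3.3B. Of the 5990 genes with a mean of at least 10 CPM, 7.26% were wholly above in this way.

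BigH1 was close to absent. Libraries labelled HDAC1 RNAi held 0 and 7 counts, and HDAC1 controls held 2 and 10. Libraries labelled GAF RNAi held 0, 4 and 0 counts, against 0, 0 and 2 in GAF controls, and Osa overexpression libraries held 6 and 0, against 0 and 0 in Osa controls. The highest level was 0.276 CPM, and a count of 0 in these libraries allows up to 0.0671 to 0.0905 CPM (3 counts per library, counting error only). It did not pass the filter on low counts in any of the experiments, so 4 of the 5 members were tested in each. Of the other germline genes listed with it, the oskar gene osk had no count in the GAF and Osa experiments.

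Median levels over the 14 libraries were 4075 CPM per kb for His4r, 1792 for His2Av, 1495 for His3.3B and 758 for His3.3A. In the 4 libraries of the HDAC1 experiment the order was His4r, His2Av, His3.3A, His3.3B and BigH1. In 3 GAF and 3 Osa libraries His3.3B came after His2Av and above His3.3A, and in 3 GAF libraries and 1 Osa library it came right after His4r, above His2Av. The levels of His3.3B and His2Av per kb overlapped in the GAF experiment (1774 to 2351 and 1849 to 2237) and in the Osa experiment (1079 to 1550 and 1387 to 1618), so their order is not separated there. His3.3A and His3.3B did not overlap in the HDAC1 experiment, at 749.9 to 1477 and 64.5 to 407 CPM per kb.

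The contrast between experiments was put beside that of all 5990 genes with a mean of at least 10 CPM. His3.3B averaged 416 CPM in the HDAC1 experiment and 4480 CPM in the other experiments, a log2 ratio of -3.43 or 10.8-fold lower in the HDAC1 experiment. The median of all genes was -0.33, the fifth percentile was -2.24, and 40 genes were lower still. His4r averaged 5529 CPM against 2919 CPM, a log2 ratio of 0.92, with 656 genes higher still and a 95th percentile of 1.41. His3.3A had a log2 ratio of 0.20 and His2Av of -0.20, within the middle of the distribution. Of all genes, 20.8% had the HDAC1 experiment wholly below the others and 7.26% wholly above, or 28% without overlap. A mean at least 4-fold lower was found in 7.23%. The members were chosen on this contrast, so the 2 without overlap are a description. Each experiment has libraries of its own, so genotype background, driver and library preparation cannot be told apart here.

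**Figure D3:**
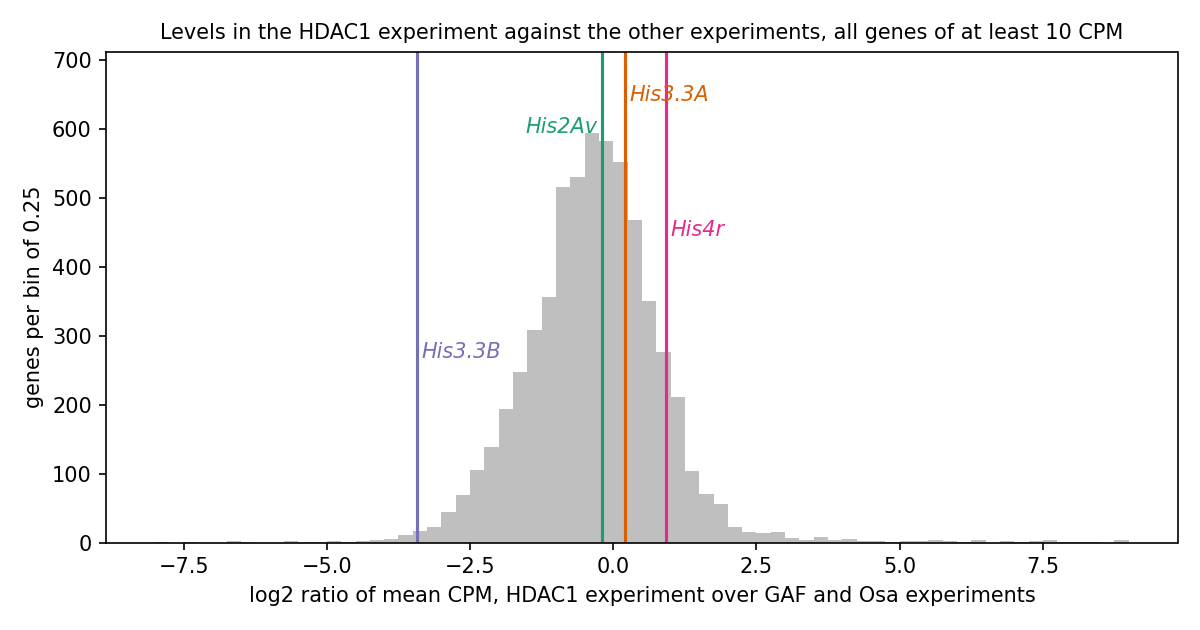
Distribution of the log2 ratio of mean CPM, HDAC1 experiment over the GAF and Osa experiments, for 5990 genes with a mean of at least 10 CPM (grey, genes per bin); vertical lines mark the histone variant genes. His3.3B lies at -3.43 in the lower tail, while His2Av at -0.20, His3.3A at 0.20 and His4r at 0.92 lie within the bulk, whose 5th and 95th percentiles are -2.24 and 1.41.

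Without the library labelled HDAC1 RNAi replicate 1 the log2 ratio of His3.3B was -4.43, and from controls alone it was -4.39. Over all alternatives it ran between -4.43 and -3.15, and that of His4r between 0.78 and 1.14. The library labelled HDAC1 RNAi replicate 1 was the nearest of its experiment to the other experiments not for His3.3B alone. This held in 1015 of the 1244 genes wholly lower in the HDAC1 experiment (81.6%) and in 231 of the 435 wholly higher ones (53.1%), His4r included.

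Several measures of the libraries moved with this contrast. The share of counts from the mitochondrial genome was 2.36% and 0.240% in libraries labelled HDAC1 RNAi and 0.57% and 0.368% in HDAC1 controls. It was 9.55% to 11.0% in libraries labelled GAF RNAi and 5.78% to 7.41% in GAF controls. In Osa overexpression it was 4.12% and 5.83%, against 6.02% and 5.53% in Osa controls. The library with the highest mitochondrial share in the HDAC1 experiment also had the highest His3.3B. Genes of different length differed as well. The median log2 ratio was 0.23 for genes of 152 to 1317 exonic bases, -0.38 for 1318 to 2165, -0.92 for 2166 to 3766 and -0.39 for 3767 to 69810. His3.3B is in the third of these classes, where 15 of 1408 genes were lower still. His4r, His3.3A and His2Av are in the first, where 277, 732 and 1001 genes were higher still. The summed blood cell markers given above were higher in every library of the HDAC1 experiment than in any other library. The part of mitochondrial share, length or blood cell markers in the levels was not tested.

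The genes around His3.3B on the X chromosome did not share its level. The nearest 3 on each side with at least 10 CPM had log2 ratios of 0.40 (CG7065), -0.08 (fh), 1.11 (Bap111), -0.13 (Ost48), -0.34 (Dlip1) and 0.02 (Zpr1). Fh is frataxin, Bap111 a subunit of the same remodelling complex as Osa, and Ost48 a subunit of the oligosaccharyl transferase.

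**Figure D4:**
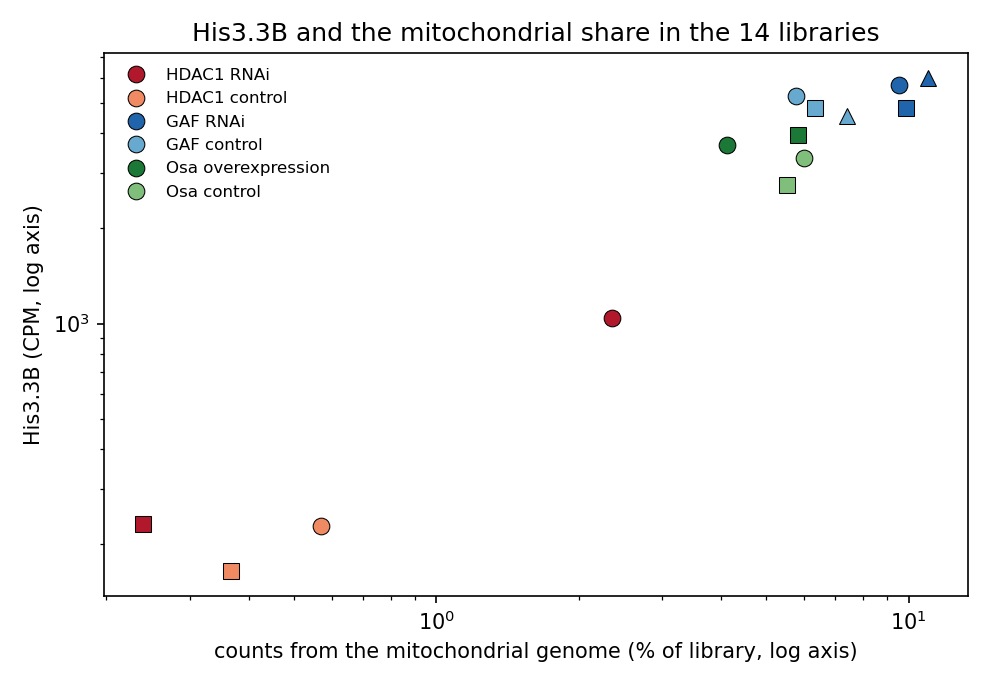
His3.3B level in CPM against the share of counts from the mitochondrial genome, both on log axes, for each library (colours are groups, and circle, square and triangle are replicates 1, 2 and 3). The HDAC1 experiment lies at 0.240% to 2.36% and 165 to 1039 CPM, and the other libraries at 4.12% to 11.0% and 2754 to 6001 CPM.

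Within the experiments, 1 member responded past the threshold: His3.3A under the label GAF RNAi. His3.3A averaged 1245 ± 60.8 CPM in libraries labelled GAF RNAi and 719 ± 44.1 CPM in GAF controls (SD, n = 3 each), a log2 fold change of 0.81 ± 0.11 (SE) or 1.75-fold higher, with an adjusted p of 0.000183 by edgeR's quasi-likelihood test. All 3 libraries labelled GAF RNAi were above all 3 controls. The call held in 14 of 14 alternatives, with log2 fold changes of 0.76 to 0.89 and adjusted p up to 0.016. His3.3A was the 1 member called of the 4 tested, where 28.4% of 9055 genes were called, 12.5% as higher.

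His3.3B averaged 5501 ± 629 CPM in libraries labelled GAF RNAi and 4859 ± 361 CPM in GAF controls (SD, n = 3 each), and its log2 fold change of 0.20 ± 0.127 had an interval of -0.05 to 0.45 (edgeR adjusted p = 0.265). His2Av was above the controls in all 3 libraries, as were 21.1% of genes (23.2% had all 3 below), with a log2 fold change of 0.18 ± 0.11 and an edgeR adjusted p of 0.249. His4r had 0.08 ± 0.12 (edgeR adjusted p = 0.664). Beside these values, intermediate progenitor markers (3 of 3) and neuron markers (6 of 6) rose under the label GAF RNAi. Of 8 type II neuroblast markers, edgeR called 2 as lower and 0 as higher (list median -0.13, all genes 0.00). These were btd at -0.82 (edgeR adjusted p = 0.00511, called in 13 of 14 alternatives) and wor at -0.46 (edgeR adjusted p = 0.0313, called in 7 of 14). DESeq2 and limma-voom each called 1 as higher and 2 as lower. Neuron markers summed to 478 to 746 CPM, against 147 to 300 CPM in GAF controls, and elav, the pan-neuronal RNA-binding protein, had a log2 fold change of 1.16 (edgeR adjusted p = 0.00352). Glial markers summed to 156 to 190 CPM, against 692 to 817 CPM in GAF controls. Of these nrv2, a sodium pump subunit, fell to 53.0 CPM, against 699.6 CPM in GAF controls, whereas Eaat1 and repo rose. Of the blood cell markers Col4a1, a collagen gene, was the 1 tested, at 2.30 CPM, against 0.559 CPM in GAF controls (log2 fold change 2.04, edgeR adjusted p = 0.0125). The mitochondrial share was also without overlap, at 9.55% to 11.0% in libraries labelled GAF RNAi and 5.78% to 7.41% in GAF controls. The part of these other cell types or of the mitochondrial share in the level of His3.3A was not tested.

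In the HDAC1 experiment none of the 4 tested members was called by edgeR, DESeq2 or limma-voom, and 1, His3.3B, had an unadjusted p under 0.05 in edgeR. His3.3B averaged 635 ± 571 CPM in the libraries labelled HDAC1 RNAi and 197 ± 45.6 CPM in HDAC1 controls (SD, n = 2 each), and both were above both controls, as for 25.5% of genes (17.4% had both below). Its log2 fold change was 1.52 ± 0.607, with an interval of 0.33 to 2.71 and an adjusted p of 0.35 by edgeR's quasi-likelihood test. The size of the difference rested on 1 library. Without the library labelled HDAC1 RNAi replicate 1 the log2 fold change was 0.27 (edgeR adjusted p = 0.443), and without replicate 2 it was 2.19 (edgeR adjusted p = 2.16e-06), where adjusted p over the 12 alternatives ran up to 1. Of 10299 genes, 0.0971% were called here, 0 of them as higher. In all, 1222 genes had an unadjusted p under 0.05, and DESeq2 called 294 and limma-voom 2.

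His3.3A averaged 1116 ± 515 CPM in the libraries labelled HDAC1 RNAi and 843 ± 26.9 CPM in HDAC1 controls (SD, n = 2 each), with 1 library above and 1 below both controls (log2 fold change 0.34 ± 0.52, edgeR adjusted p = 0.884). Without replicate 1 of that label it was higher than the controls by 0.85 ± 0.152 on the log2 scale (edgeR adjusted p = 0.00293, up to 1 over the 12 alternatives), where 14.4% of 11316 genes were called and 7.63% as higher. Without replicate 2 it was -0.38 (edgeR adjusted p = 0.0875), so the direction depended on which library was used. In that setting, which called 32.1% of genes (16.8% as higher, 15.3% as lower), 3 members were called: His3.3B as higher, and His2Av and His4r as lower by log2 fold changes of -0.59 each (edgeR adjusted p = 0.0101 and 0.0103). With both libraries, His2Av had -0.15 ± 0.5 (interval -1.13 to 0.83, edgeR adjusted p = 0.952) and His4r -0.03 ± 0.533 (interval -1.07 to 1.02, edgeR adjusted p = 0.992). These intervals span changes of about 2-fold. Larger changes could go uncalled too, as His3.3B did at a log2 fold change of 1.52. A lone library in such a fit is assumed to vary like the others. Neuron markers summed to 855 to 1592 CPM under the label HDAC1 RNAi, against 352 to 482 CPM in HDAC1 controls, with 6 of 6 higher at an unadjusted p under 0.05. Of these 6, edgeR and limma-voom called none and DESeq2 called 4, and edgeR called 5 as higher without the library labelled HDAC1 RNAi replicate 1. The synaptic genes nSyb and Syt1 had log2 fold changes of 1.89 and 1.80 (edgeR adjusted p = 0.0928 and 0.134) and were each called in 6 of 12 alternatives. Of 8 type II neuroblast markers, 5 were lower at an unadjusted p under 0.05 in edgeR (list median -1.1, all genes 0.06). All 3 intermediate progenitor markers were higher at that threshold (list median 1.53). DESeq2 called 3 of the neuroblast markers and none of the progenitor markers. With both libraries, edgeR and limma-voom called none of either list. Without the library labelled HDAC1 RNAi replicate 1, the median log2 fold change was -1.29 for the neuroblast markers and 0.86 for the progenitor markers (all genes -0.04). The part of these cell types in these values was not tested.

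In the Osa experiment none of the 4 tested members was called by edgeR, DESeq2 or limma-voom either, and 1, His4r, had an unadjusted p under 0.05 in edgeR, where 21.1% of 9156 genes were called (8.86% as higher, 12.2% as lower). His3.3B averaged 3816 ± 197 CPM in Osa overexpression and 3044 ± 411 CPM in Osa controls (SD, n = 2 each), with both above both controls, as for 33.8% of genes (log2 fold change 0.33 ± 0.148, interval 0.04 to 0.62, edgeR adjusted p = 0.137). Its interval leaves out 0 by a normal approximation, whereas its unadjusted p by edgeR's quasi-likelihood test was 0.0505. His3.3A averaged 620 ± 34.2 CPM in Osa overexpression and 691 ± 19.2 CPM in Osa controls, with both below both controls, as for 31.8% of genes (log2 fold change -0.15 ± 0.132, edgeR adjusted p = 0.433). His4r, also below in both, had -0.35 ± 0.155 (interval -0.66 to -0.05, edgeR adjusted p = 0.13). His2Av had -0.10 ± 0.14 (edgeR adjusted p = 0.66).

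These values depend on the scaling. With library size alone the median log2 fold change of all genes moved to 0.32, against 0.05 with TMM, and genes called were 1963 higher and 538 lower, against 811 higher and 1118 lower with TMM (27.3% of genes called, 21.4% as higher). His3.3B then had 0.61 (edgeR adjusted p = 0.0175, range over the 12 alternatives 0.0175 to 0.725) and His3.3A and His2Av turned to 0.12 and 0.18. Without Osa overexpression replicate 2, His4r was called at -0.50 (edgeR adjusted p = 0.0386, range 0.0386 to 0.719), where 36.5% of genes were called and 18.8% as lower. Intermediate progenitor markers rose in Osa overexpression (3 of 3), and of 8 type II neuroblast markers 2 rose and 3 fell, pnt and grh with log2 fold changes of -1.62 and -1.63. Of 6 neuron markers 2 rose, nSyb by 0.81 (edgeR adjusted p = 0.0132) and elav by 0.62 (edgeR adjusted p = 0.0193), each called in 9 of 12 alternatives. Neuron markers summed to 1205 to 1210 CPM in Osa overexpression, against 803 to 1058 CPM in Osa controls. The part of these cell types in the values of the members was not tested.

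**Figure D5:**
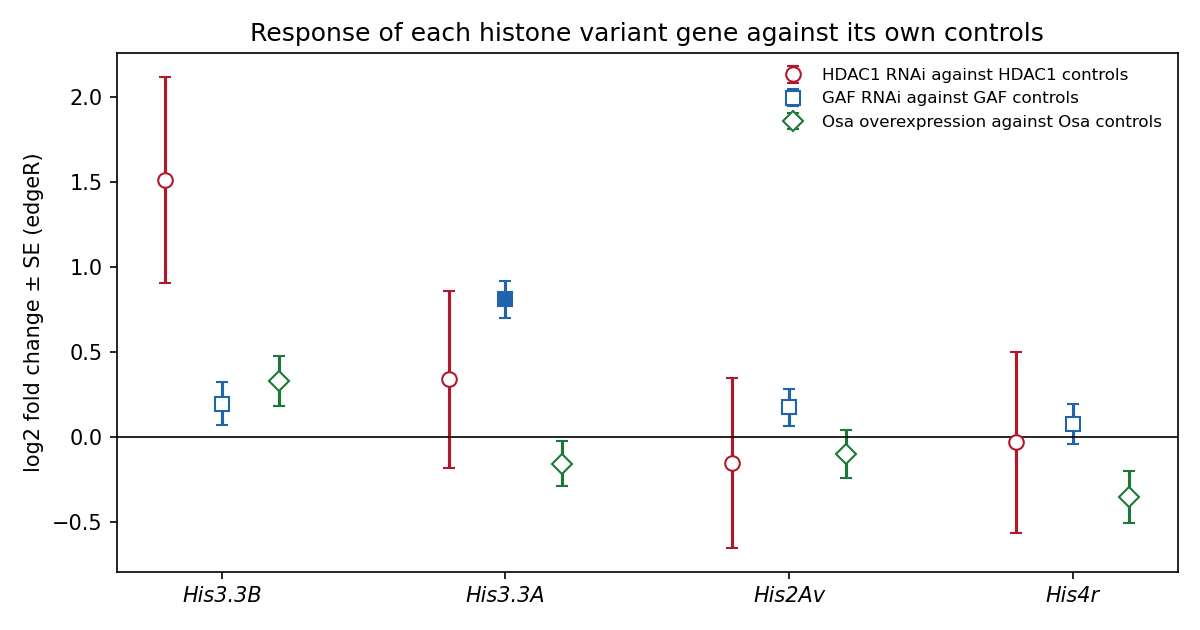
Log2 fold change of each histone variant gene against the controls of its own experiment, with SE from edgeR as bars; a filled symbol is called at an adjusted p under 0.05. The filled symbol is His3.3A under the label GAF RNAi at 0.81, and the bars of the HDAC1 experiment (0.5 to 0.607) are longer than those of the other experiments.

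Of 16 H3 and H3.3 chaperones, 1 rose and 1 fell under the label GAF RNAi (list median -0.10, all genes 0.00), where 28.4% of all genes were called. Asf1, a chaperone that hands H3-H4 to the deposition complexes, had a log2 fold change of 0.39 ± 0.118 (edgeR adjusted p = 0.0244, called in 10 of 14 alternatives). Caf1-105, a subunit of the complex that deposits H3 behind the replication fork, had -0.46 ± 0.149 (edgeR adjusted p = 0.0343, called in 6 of 14). In Osa overexpression 3 rose and 2 fell (list median 0.45, all genes 0.05), where 21.1% of all genes were called. DESeq2 called 8 as higher and 2 as lower there, and limma-voom 1 and 2. XNP, the fly ATRX protein, which works in H3.3 deposition, had 0.94 ± 0.274 (edgeR adjusted p = 0.0443, called in 6 of 12), and its partner ADD1 0.82 ± 0.2 (edgeR adjusted p = 0.021, called in 9 of 12). The nucleoplasmin family chaperones Nph and Nlp had -0.81 ± 0.165 (edgeR adjusted p = 0.0112) and -0.59 ± 0.151 (edgeR adjusted p = 0.0235). These were called in 11 and 7 of 12 alternatives, and the alternatives that lost Nlp were library size alone, all 14 libraries in 1 fit, and leaving out either Osa control or Osa overexpression replicate 1. Under the label HDAC1 RNAi none of the 16 was called by edgeR, DESeq2 or limma-voom. In edgeR 0 had an unadjusted p under 0.05. Without replicate 1 of that label the list median was -0.06 (all genes -0.04). With both libraries Nph had a log2 fold change of -0.67 and dre4 of -0.42. Over the 12 alternatives, among them each library left out, Nph ran from -1.57 to -0.09 and dre4 from -0.49 to -0.14.

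Of 19 genes of the complexes that exchange or remodel H2A.Z nucleosomes, 2 rose and 3 fell under the label GAF RNAi (list median -0.10), where 12.5% of all genes were called as higher and 15.9% as lower. Arp6, an actin-related subunit, had a log2 fold change of -0.70 ± 0.137 (edgeR adjusted p = 0.00241, called in 14 of 14 alternatives). The paired ATPases pont and rept had -0.47 ± 0.13 and -0.50 ± 0.142 (edgeR adjusted p = 0.0174 and 0.0189), and Gas41, a reader of acetylated histones, 0.46 ± 0.131 (edgeR adjusted p = 0.0183). These 3 calls were lost in 6, 5 and 4 of the 14 alternatives. In Osa overexpression only Brd8, a bromodomain subunit, was called by edgeR of the 19 (2 by DESeq2, 0 by limma-voom), at 0.98 ± 0.295 (edgeR adjusted p = 0.0464, called in 7 of 12). None of the 19 was called under the label HDAC1 RNAi by edgeR, with or without replicate 1, by DESeq2 or by limma-voom, and 0 had an unadjusted p under 0.05 in edgeR. The 3 genes of the centromere list hold the centromeric H3 variant cid, its loader cal1 and Cenp-C. Of these cal1 rose in Osa overexpression, by 0.96 ± 0.196 (edgeR adjusted p = 0.0111, called in 10 of 12 alternatives). In the other experiments edgeR called none of the 3, with 1 at an unadjusted p under 0.05. That gene was cid under the label GAF RNAi, at 0.35 ± 0.142 (edgeR adjusted p = 0.0778), which DESeq2 called at 0.37 (adjusted p = 0.0452) and which was called in 2 of 14 alternatives.

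The replication-dependent cluster, whose mRNA has no poly(A) tail, was read at low levels. Of 111 such genes 91 had any count, and 15 to 19 could be tested. Their summed level was 67.2 to 113 CPM in libraries labelled HDAC1 RNAi and 124 to 126 CPM in HDAC1 controls. It was 47.0 to 58.9 CPM in libraries labelled GAF RNAi, against 29.8 to 40.0 CPM in GAF controls, and 48.7 to 62.0 CPM in Osa overexpression, against 51.8 to 71.6 CPM in Osa controls. The 23 His3 genes together had at most 13 counts in any library, so the ratio of H3.3 to H3 mRNA cannot be read from these data. Of the counts, 74.6% to 81.1% came from 2 genes, His2B:CG33908 and His2B:CG33868, and His2B:CG33908 rose under the label GAF RNAi (0.72 ± 0.17, edgeR adjusted p = 0.00733, called in 14 of 14 alternatives). A second gene, His2B:CG33872, was called at 1.33 ± 0.469 (edgeR adjusted p = 0.0499) but in 2 of 13 alternatives. The copies are nearly identical, so the split between them is uncertain. None was called in the other experiments by edgeR, DESeq2 or limma-voom, with 0 at an unadjusted p under 0.05 in edgeR. Under the label HDAC1 RNAi, His2B:CG33868 had a log2 fold change of -0.62, which ran from -1.29 to -0.13 over the 12 alternatives. Of 14 tested genes for synthesis and processing of these mRNAs, none was called under the label GAF RNAi by edgeR (5 at an unadjusted p under 0.05, all lower), while DESeq2 called 2 and limma-voom 1 as lower. In Osa overexpression 2 rose: mxc, which organises the histone locus body, by 1.00 ± 0.208 (edgeR adjusted p = 0.0121), and Cbp80, the cap-binding subunit, by 0.73 ± 0.177 (edgeR adjusted p = 0.0194). Each was called in 9 of 12 alternatives, and the calls were lost with all 14 libraries in 1 fit and without either Osa control.

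DNA replication genes, whose products act in the phase when cluster histones are made, had 3 of 21 called as higher and 1 as lower under the label GAF RNAi, where 12.5% of all genes were called as higher and 15.9% as lower. Geminin, the licensing inhibitor, rose by 0.58 ± 0.114 (edgeR adjusted p = 0.00259), and CycE, the S-phase cyclin, by 0.43 ± 0.109 (edgeR adjusted p = 0.0114). The 1 lower gene was DNApol-alpha73, at -0.62 ± 0.173 (edgeR adjusted p = 0.0168, called in 10 of 14 alternatives). In Osa overexpression 6 of 21 rose, where 8.86% of all genes were called as higher. The smallest p-values were those of the licensing factor dup (0.66 ± 0.135, edgeR adjusted p = 0.0106), the helicase subunit Mcm5 (0.76 ± 0.175, edgeR adjusted p = 0.0165) and the origin recognition subunit Orc1 (0.89 ± 0.213, edgeR adjusted p = 0.02). Each of these was called in 9 of 12 alternatives, and the calls were lost with all 14 libraries in 1 fit and without either Osa control. None was called under the label HDAC1 RNAi by edgeR, DESeq2 or limma-voom (median -0.13, all genes 0.06), with 0 at an unadjusted p under 0.05 in edgeR. Without replicate 1 edgeR called 1 as higher and 5 as lower, where 7.63% of all genes were called as higher and 6.75% as lower.

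Germline genes, read beside BigH1, had 3 higher and 2 lower of 7 tested under the label GAF RNAi, where 28.4% of all genes were called. The differentiation gene bam had 22.7 CPM, against 7.36 CPM in GAF controls (1.65 ± 0.208, edgeR adjusted p = 0.000118), and the piRNA factor AGO3 26.0 CPM, against 11.2 CPM (1.23 ± 0.189, edgeR adjusted p = 0.000498). The 2 lower genes were gcl at -0.90 ± 0.148 (edgeR adjusted p = 0.000774, called in 14 of 14 alternatives) and stwl at -0.68 ± 0.177 (edgeR adjusted p = 0.0125, called in 11 of 14). In Osa overexpression edgeR called none of the 7 tested. AGO3, the 1 with an unadjusted p under 0.05, had 10.6 CPM, against 3.36 CPM in Osa controls (1.64 ± 0.507, edgeR adjusted p = 0.051). It was called in 8 of 12 alternatives, among them DESeq2 (1.63, adjusted p = 0.0041) but not limma-voom. Under the label HDAC1 RNAi none of the 8 tested was called by edgeR, DESeq2 or limma-voom (1 at an unadjusted p under 0.05 in edgeR, lower). That gene was bam, at -1.76, with a range of -2.41 to -1.13 over 11 alternatives. Without replicate 1 of that label the list median was -0.47 (all genes -0.04).

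Among 5989 other genes with at least 10 CPM, those with the most similar pattern over the 14 libraries were ranked for each member by Pearson's correlation of log2 CPM. The libraries fall into 3 experiments, so the correlation after centring each experiment is given beside it. Centring leaves differences within an experiment in place, among them those of the library labelled HDAC1 RNAi replicate 1. The correlations were not computed without that library, so the centred values may rest on it. For His3.3B they were CG9636 (0.994, centred 0.945), Cals (0.994, centred 0.941) and the RNA-binding protein gene Hrb27C (0.992, centred 0.953). For His4r they were the mitochondrial ribosomal protein gene mRpL32 (0.988, centred 0.955), ATPsynF of the ATP synthase (0.986, centred 0.925) and the superoxide dismutase gene Sod1 (0.983, centred 0.926). For His2Av they were CG15601 (0.958, centred 0.889), the replication clamp PCNA (0.958, centred 0.942) and CG12321 (0.945, centred 0.890). His3.3A had the lowest values before centring, with Bin1 (0.911, centred 0.880), daed (0.906, centred 0.912) and CG18004 (0.904, centred 0.897). No gene was closest to more than 1 of the 4 members, and neither H3.3 gene was among the nearest 3 of the other.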

How the data were processed

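The deposited table holds raw counts per gene for each library, made by the authors and not normalised. Per the submitters' processing notes, the tools were featureCounts 2.0.3, HISAT2 2.2.1, Trim Galore 0.6.10 and SAMtools 1.6, with dm6. Per the labels, RNA of 1k to 2k cells was amplified with a whole-transcriptome kit and a transposase kit was used for the libraries, which does not mark strand. How multi-mapping reads and mates were counted, and with which annotation, was not given in the sources used here. Of counts from 1 to 49, 61.5% to 70.4% were even, so counting intervals may be too narrow.

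Samples were grouped by title. Levels are CPM with TMM factors over all 14 libraries. Each experiment was compared with its own controls in edgeR 4.0.16 (R 4.3.3): expression filter with a minimum count of 10 and total of 15, TMM within the experiment, robust quasi-likelihood test, Benjamini-Hochberg over all tested genes, threshold 0.05. SE is the log2 fold change over the square root of F, and 95% intervals are from that SE by a normal approximation. With so few libraries these intervals are too narrow, and 1 can leave out 0 where the test's unadjusted p is above 0.05. Level ratios between experiments have no test. Likeness used log2(CPM + 1). The test was tried on simulated counts. Median chi-square per gene between replicates was 7.52 to 132, so every pair differed by more than sampling noise. No pairing by replicate number was seen in the GAF experiment, and with 2 libraries a group the check could not decide it.

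Members and lists were chosen with earlier results of these data known. Named are all members in every library and the 3 most similar genes. Genes of each list are named from up to 4 called with the smallest p (2 where none was called). Not all of these are printed. The neighbours of His3.3B, the length classes, the mitochondrial share and the place of the library labelled HDAC1 RNAi replicate 1 were looked at after the values were seen, and the shortest-transcript share was added then too. Of the table's 17868 symbols 17161 are current. The list entry CDC45L matched no gene, and 4 primase and polymerase entries were matched by synonym. Alternatives were RLE factors, library size only, DESeq2 1.42.0, limma-voom (limma 3.58.1), no filter, a minimum mean of 5 CPM, the replicate block, all 14 libraries in 1 fit and each library left out. The reference held no sequences, so none is shown.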

Additional observations from a re-analysis of the deposited data

Results flagged for a closer look

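No group has 4 libraries, so no library was compared with the rest of its group for distance. The genes below are given because all libraries of 1 experiment lay on 1 side of their controls while all libraries of another lay on the opposite side. These differences between experiments were not tested, and the values are log2 fold changes against each experiment's own controls. His3.3A had 0.811 under the label GAF RNAi and -0.155 in Osa overexpression.

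Among the H3 chaperones, asf1 had 0.394 under the label GAF RNAi and -0.174 in Osa overexpression, and Caf1-105 had 0.432 in Osa overexpression and -0.462 under the label GAF RNAi. The FACT subunit gene dre4 had 0.838 in Osa overexpression and -0.419 under the label HDAC1 RNAi. Among genes of H2A.Z exchange complexes, Gas41 had 0.463 under the label GAF RNAi and -0.387 in Osa overexpression. Brd8 had 0.982 in Osa overexpression and -0.748 under the label GAF RNAi, and rept had 0.155 under the label HDAC1 RNAi and -0.502 under the label GAF RNAi.

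The cluster gene His2B:CG33908 had 0.724 under the label GAF RNAi and -0.504 under the label HDAC1 RNAi. CycE had 0.427 under the label GAF RNAi, -0.714 under the label HDAC1 RNAi and -0.362 in Osa overexpression. The helicase subunit gene Mcm7 had 0.435, -0.571 and 0.125 in the same order. Of the germline genes, bam had 1.65 under the label GAF RNAi and -1.76 under the label HDAC1 RNAi, and gcl had 0.136 under the label HDAC1 RNAi and -0.9 under the label GAF RNAi. With 2 libraries a group, libraries fall wholly on 1 side often: 25.5% of genes were above and 17.4% below the controls in the HDAC1 experiment, and 33.8% and 31.8% in the Osa experiment.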

How the results depend on the processing

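The call of His3.3A under the label GAF RNAi held in every alternative run, and the members without overlap between experiments stayed at 2 in all 17. Genes called under the label GAF RNAi numbered 2573, and 1451 with all 14 libraries in 1 fit and 1593 to 3389 with a library left out. Under the label HDAC1 RNAi 10 were called, against 0 with library size only, 309 with no filter, 294 with DESeq2, 2 with limma-voom, 345 with all 14 libraries and 36 to 3621 with a library left out. Members called there were 0, and 0 to 3 with a library left out. In Osa overexpression 1929 were called, 354 with all 14 libraries and 498 to 3535 with a library left out, and members called were 0, 1 with library size only and 0 to 1 with a library left out. Same-number correlations of deviations were 0.00429, -0.0787 and -0.19 in the GAF experiment, where those between different numbers ran from -0.0741 to 0.147. They were 0.164 in the HDAC1 and 0.00719 in the Osa experiment. With 2 libraries a group, values between different numbers are the same with the sign turned, so pairing is not settled there. With the replicate block, 241 genes were called under the label HDAC1 RNAi, with no member among them, and His3.3A kept 0.81 under the label GAF RNAi.

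Directions turned as follows under the label HDAC1 RNAi, for log2 fold changes that were not called in the main fit. Some of the values with a library left out did pass the threshold. Library size only gave 0.039 for His2Av, 0.15 for His4r and 0.016 for cid. His4r had 0.0078 with no filter and 0.042 with all 14 libraries. With a library left out, His3.3A ran from -0.38 to 0.85, His2Av from -0.59 to 0.21, His4r from -0.59 to 0.40, cid from -0.66 to 0.23, Ars2 from -0.050 to 0.97, Col4a1 from -0.37 to 1.02 and Lsp1beta from -0.75 to 1.39. In Osa overexpression, library size only gave 0.12 for His3.3A, 0.18 for His2Av and 0.015 for bt. The ratio between experiments turned for His2Av with RLE factors (0.019) and for His3.3A with a library left out (-0.067 to 0.31, the lowest without HDAC1 RNAi replicate 2). Of log2 fold changes of named genes, 1059 kept direction and side of the threshold, 131 lost and 67 gained a call. The cause was not tested. Depth limits BigH1 alone of the members.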
